A study of Mus musculus with 8 samples.

Results

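Collagen genes were measured on arrays in the gastrocnemius, a muscle of the calf, of Hdac5 knockout mice, which lack a histone deacetylase, and of their wild type littermates. All genes whose symbol in the array annotation has the form of a collagen chain (Col, a type number, the letter a and a chain number) were taken, which gave 44 chains of the 19938 genes tested. They comprise 11 fibrillar chains, 6 chains of type IV, the basement membrane collagen, and 27 other chains. Where a chain had several probe sets, the brightest by its mean was used, which concerned Col6a5 and Col6a6. No filter on low signal was applied, so all 44 chains entered the comparison, and 11 of them lay at or below the signal of the median gene.

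The knockout group (4 samples) is labelled as the Hdac5 knockout line of an earlier study, and the wild type group (4 samples) as its littermate controls. Mice of both groups were 30 weeks old, were fed low-fat chow and had no further treatment. HDAC5 represses transcription in muscle by binding MEF2 factors, and the submitters asked what it does to interleukin 6 and the genes that interleukin 6 regulates. The sources used here do not give the deleted part of the gene, the sex of the mice or whether each sample came from a different animal. The p-values therefore reflect only how these samples scatter, and part of that scatter may be technical. The log2 signal of Hdac5 averaged 9.83 ± 0.08 (SD, n = 4) in wild type muscle and 8.33 ± 0.04 (SD, n = 4) in knockout muscle, and each knockout sample was lower. Its adjusted p was 1.74e-07 in limma, and a two-sided exact permutation test gave p = 0.0286, the smallest that 4 against 4 samples allow. Whole muscle RNA holds fibres, fibroblasts, vessels and nerve together, and fewer cells of a type cannot be told apart from less RNA per cell. The 9 fibre markers examined, among them skeletal actin Acta1, all lay at or above the 99.8th percentile of gene signals.

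Collagens are mostly secreted proteins whose chains wind into a helix of 3 chains, either copies of 1 chain or a mixture of related ones. Fibrillar collagens, mainly types I and III, form the fibrils of the connective tissue around muscle bundles and single fibres, and type V chains are built into the same fibrils. Type IV chains form the sheet-like network of the basement membrane that wraps each fibre and capillary, and type VI forms beaded filaments between that membrane and the fibrils. In muscle most of these chains are made by fibroblasts and other stromal cells rather than by the fibres.

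No collagen chain separated the genotypes at the threshold used for all genes. In limma, 0 of the 44 chains had an adjusted p under 0.05, where 0.0652% of all genes did. The knockout mean was higher for 22 chains and lower for 22 (50% higher, against 51.4% of all genes), and the median difference was 0.0055 on the log2 scale (knockout minus wild type), beside 0.003 over all genes. At an unadjusted p under 0.05 in limma, 7 chains differed in either direction, where 7.9% of all genes did. Of these, 4 chains were higher in knockout muscle (Col3a1, Col6a2, Col6a3 and Col8a1), 9.09% of the chains against 4.72% of all genes. By the same rule 3 chains were lower (Col10a1, Col11a1 and Col6a5), 6.82% against 3.18% of all genes. In 0 chains did every knockout sample lie above every wild type sample (2.91% of all genes), and in 1 chain, Col10a1, every knockout sample lay below every wild type sample (1.99% of all genes).

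**Figure D1:**
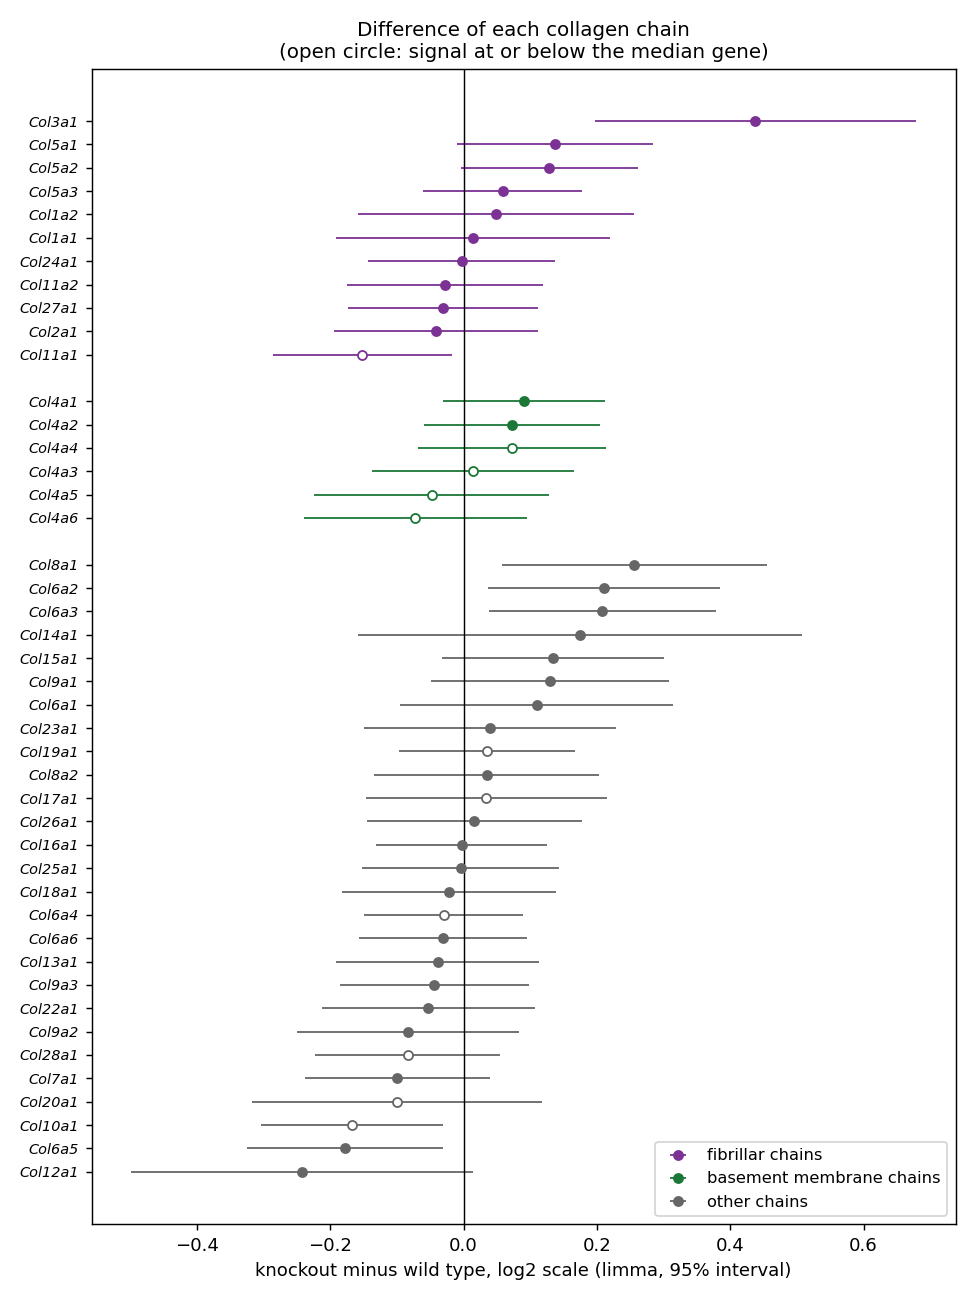
Difference between knockout and wild type muscle for each of the 44 collagen chains (x axis, log2 scale, point and 95% limma interval), ordered by size within fibrillar, basement membrane (type IV) and other chains; open circles mark chains at or below the signal of the median gene. The differences run from -0.24 for Col12a1 to 0.44 for Col3a1, and the intervals of 7 chains exclude 0, without adjustment for the number of genes.

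Among the fibrillar chains the difference was largest for type III and near 0 for both chains of type I. Col3a1, the only chain of type III collagen, an extensible fibril of young and repairing connective tissue, had signals of 10.73, 10.40, 10.87 and 10.58 in knockout samples 1 to 4 and of 10.17, 10.48, 10.12 and 10.06 in wild type samples 1 to 4. In 3 knockout samples it lay above all wild type samples, while knockout sample 2 lay below wild type sample 2, so the genotypes overlapped. The difference was 0.44 on the log2 scale (SE 0.11, 95% interval 0.20 to 0.68), 1.35-fold, with an adjusted p of 0.250 in limma. Without wild type sample 2 the difference was 0.53, with a limma adjusted p of 0.111 and no overlap, and over all the alternatives tried the adjusted p stayed between 0.111 and 0.504.

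Type I collagen, the main fibril protein of tendon and muscle fascia, is built from Col1a1 and Col1a2. Col1a1 had signals of 10.39, 10.09, 10.54 and 10.37 in knockout and of 10.22, 10.51, 10.32 and 10.28 in wild type samples 1 to 4. The genotypes overlapped over nearly their whole range, and the difference was 0.01 (SE 0.09, 95% interval -0.19 to 0.22), with a sign that turned under quantile normalization (-0.02). Col1a2 had signals of 10.81, 10.50, 10.84 and 10.82 in knockout and of 10.59, 10.90, 10.74 and 10.55 in wild type samples 1 to 4. Its difference was 0.05 (SE 0.10, 95% interval -0.16 to 0.26), and knockout sample 2 stood below the other 3 knockout samples. Leaving out 1 sample moved it to between 0.002 (wild type sample 4) and 0.13 (knockout sample 2).

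Type III and type I chains were also set against each other within each array. The log2 signal of Col3a1 minus that of Col1a1, set to 0 at its wild type mean, was 0.47, 0.43, 0.46 and 0.34 in knockout samples 1 to 4 and 0.07, 0.09, -0.07 and -0.10 in wild type samples 1 to 4. Every knockout sample lay above every wild type sample, including samples numbered 2, in which the levels of Col3a1 alone overlapped. The same quantity for Col3a1 minus Col1a2 ran from 0.24 to 0.52 in knockout and from -0.13 to 0.07 in wild type samples. For Col1a1 minus Col1a2, the partners of the type I helix, it ran from -0.09 to 0.06 in knockout and from -0.06 to 0.09 in wild type samples, which overlapped. Separation was not particular to types III and I. Among the further pairs compared, Col8a1 minus its partner Col8a2 ran from 0.10 to 0.45 in knockout and from -0.03 to 0.09 in wild type samples. All remaining pairs compared overlapped between the genotypes, among them Col3a1 minus Col5a2, Col4a1 minus Col4a2 and Col5a1 minus Col5a2. How often pairs of other genes separate in this way was not computed. These pairs were chosen after their values were seen, so their differences are described without a test.

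The start regions of Col3a1 and Col1a2 are printed because these fibrillar chains had the largest difference (0.44) and one near 0 (0.05), and that of Col6a3 as a type VI chain at 0.21. Each is the 250 bases before the RefSeq start of the gene on GRCm38.p6, 5′ to 3′ in the gene's direction, at chr1:45311288-45311537 (plus strand) for Col3a1, at chr6:4505368-4505617 (plus strand) for Col1a2 and at chr1:90843972-90844221 (minus strand) for Col6a3. Capitals mark the letters TATAAA or CCAAT found on either strand.
Col3a1: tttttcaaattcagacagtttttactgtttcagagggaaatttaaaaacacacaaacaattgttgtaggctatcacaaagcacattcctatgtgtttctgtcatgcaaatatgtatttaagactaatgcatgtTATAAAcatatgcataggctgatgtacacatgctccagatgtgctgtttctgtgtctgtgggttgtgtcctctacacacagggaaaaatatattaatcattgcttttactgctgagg
Col1a2: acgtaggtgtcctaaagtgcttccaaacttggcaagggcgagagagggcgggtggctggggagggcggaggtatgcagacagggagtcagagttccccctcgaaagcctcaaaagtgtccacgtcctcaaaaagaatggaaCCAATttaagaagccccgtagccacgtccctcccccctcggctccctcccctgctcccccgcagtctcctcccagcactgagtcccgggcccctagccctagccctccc
Col6a3: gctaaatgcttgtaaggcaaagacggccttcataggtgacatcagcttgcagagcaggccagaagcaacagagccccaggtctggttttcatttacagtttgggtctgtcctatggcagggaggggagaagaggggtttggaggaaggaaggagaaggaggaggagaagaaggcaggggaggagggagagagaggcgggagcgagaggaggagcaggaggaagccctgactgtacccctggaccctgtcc
The Col3a1 window holds 1 TATAAA and 0 CCAAT, the Col1a2 window 1 CCAAT and 0 TATAAA, and the Col6a3 window neither. The share of G and C was 35.2% for Col3a1, 62.0% for Col1a2 and 57.2% for Col6a3. Over all 32851 RefSeq windows of this length, 12.4% hold TATAAA and 33.8% hold CCAAT on either strand. Of the 35 chains with a window, TATAAA occurred in 5 and CCAAT in 13. The consensus of MEF2, the factor that HDAC5 binds, occurred in 2.92% of all windows and in 1 chain, Col13a1, whose difference was -0.04 (95% interval -0.19 to 0.11). A match of letters describes the sequence and does not show a site in use.

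Type V chains, which join type I and III fibrils and limit their width, had differences between those of type III and type I. Col5a1 had signals of 8.91, 8.84, 9.02 and 9.07 in knockout and of 8.83, 8.91, 8.83 and 8.72 in wild type samples 1 to 4, and Col5a2 of 8.46, 8.33, 8.44 and 8.44 against 8.25, 8.41, 8.27 and 8.23. For both, 3 of the 4 knockout samples lay above all wild type samples and knockout sample 2 did not. The difference was 0.14 for Col5a1 (95% interval -0.01 to 0.28) and 0.13 for Col5a2 (-0.004 to 0.26), with adjusted p-values of 0.662 and 0.647 in limma. Col5a3, a further type V chain, had signals of 8.72, 8.69, 8.70 and 8.76 in knockout and of 8.65, 8.74, 8.60 and 8.64 in wild type samples, and differed by 0.06 (95% interval -0.06 to 0.18). Col5a2 lies next to Col3a1 on chromosome 1, and the log2 signal of Col3a1 minus Col5a2 overlapped between the genotypes (0.14 to 0.52 in knockout, -0.09 to 0.15 in wild type samples).

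**Figure D2:**
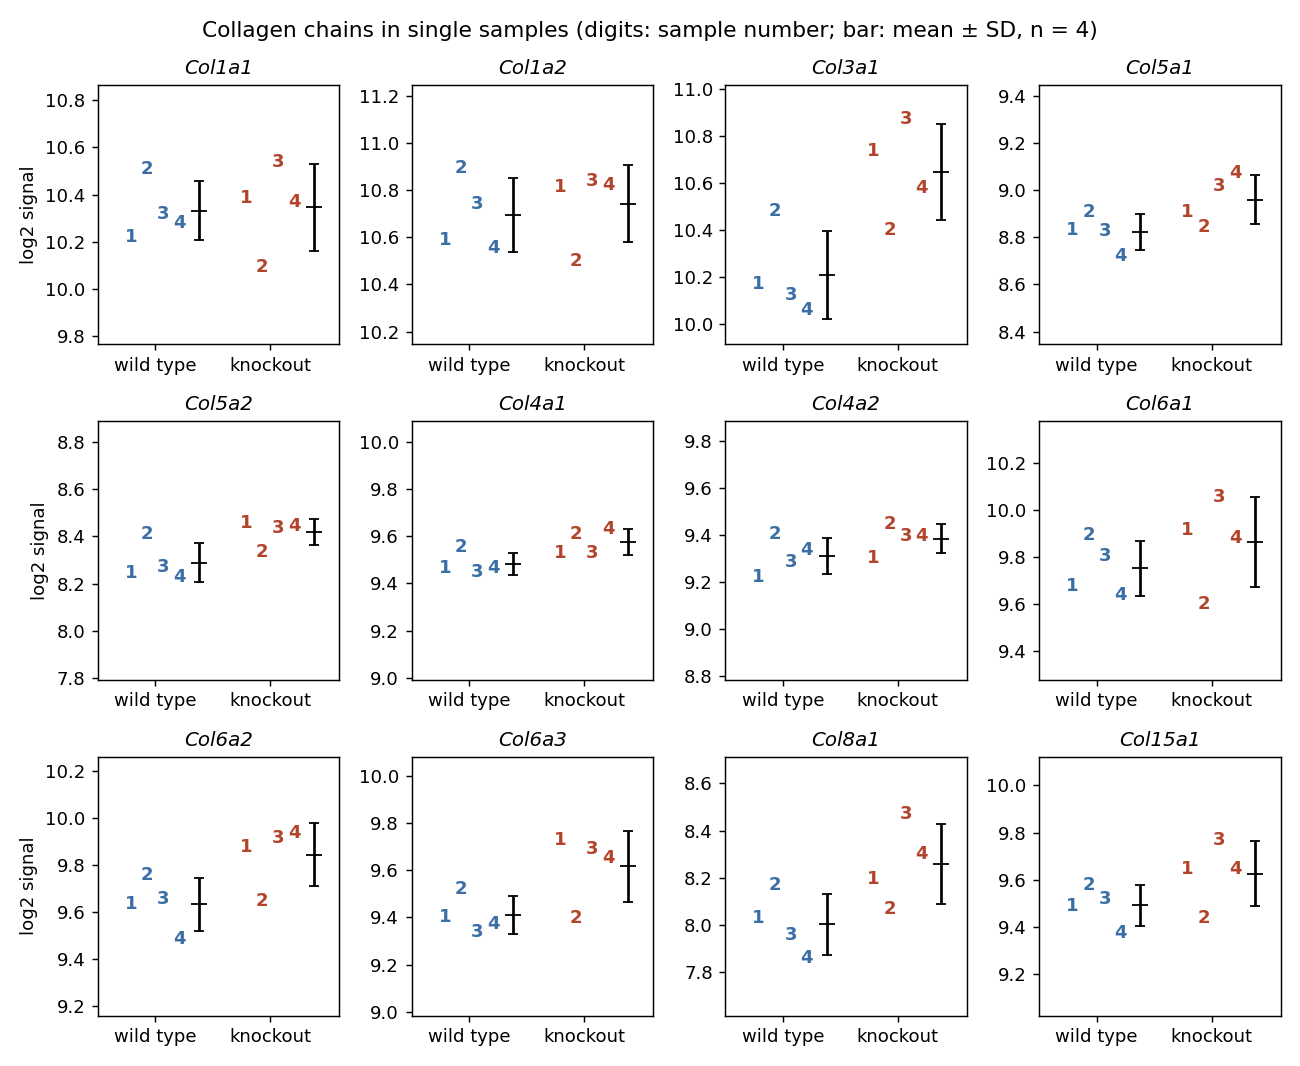
Log2 signal (y axis, 1.1 units in each panel) of 12 collagen chains in each wild type (blue) and knockout (red) sample, where digits give the sample number and the black bar the mean and SD of 4 samples. Col3a1 is higher in knockout samples 1, 3 and 4 than in all wild type samples, while Col1a1 and Col1a2 overlap over nearly their whole range; wild type sample 2 and knockout sample 2 often cross.

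The remaining 5 fibrillar chains had lower knockout means. Col2a1, the main collagen of cartilage, ran from 8.40 to 8.66 in knockout and from 8.51 to 8.66 in wild type samples, and Col11a2, a chain of its fibrils, from 8.55 to 8.77 and from 8.63 to 8.75. Col24a1 had signals of 8.37, 8.42, 8.40 and 8.60 in knockout and of 8.48, 8.47, 8.46 and 8.39 in wild type samples, and Col27a1 of 8.52, 8.60, 8.69 and 8.73 against 8.58, 8.77, 8.63 and 8.68. The genotypes overlapped in each of these. Their differences were -0.04, -0.03, -0.003 and -0.03, each with an interval that includes 0, and the sign of each turned with at least 1 of the samples left out.

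Col11a1, a chain of thin cartilage fibrils, had signals of 7.82, 7.90, 7.92 and 8.05 in knockout and of 8.02, 8.11, 8.08 and 8.09 in wild type samples. Only knockout sample 4 reached the wild type range, and the difference was -0.15 (95% interval -0.29 to -0.02, limma adjusted p = 0.555). It lay at the 48.8th percentile of signals. Of 6 cartilage markers, 5 lay between the 10.1st and the 26.2nd percentile, among them the proteoglycan Acan, and Sox9 lay at the 56.8th.

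Basement membrane chains differed by small amounts in both directions. Col4a1 and Col4a2 form the type IV helix of most basement membranes and start head to head on chromosome 8. Col4a1 had signals of 9.53, 9.61, 9.53 and 9.63 in knockout and of 9.47, 9.55, 9.45 and 9.47 in wild type samples 1 to 4, a difference of 0.09 (SE 0.06, 95% interval -0.03 to 0.21). Wild type sample 2 alone overlapped the knockout samples. Col4a2 had signals of 9.30, 9.45, 9.40 and 9.39 against 9.22, 9.40, 9.29 and 9.34, a difference of 0.07 (SE 0.06, 95% interval -0.06 to 0.21), with the genotypes overlapping. Their limma adjusted p-values were 0.750 and 0.828.

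The other 4 type IV chains, which replace Col4a1 and Col4a2 in specialised membranes such as those of kidney, all lay below the median gene. Col4a3 and Col4a4 differed by 0.01 and 0.07, and Col4a5 and Col4a6 by -0.05 and -0.07. Each of their intervals included 0, and the widest ran from -0.22 to 0.13 for Col4a5. Each pair shares a start region, and the members of each pair had the same sign.

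Set side by side, the classes were close to each other and to all genes. The median difference was 0.01 for the 11 fibrillar, 0.04 for the 6 basement membrane and -0.004 for the 27 other chains, against 0.003 for all genes tested. The knockout mean was higher for 6 fibrillar, 4 basement membrane and 12 other chains. Their ranges differed more than their medians: -0.15 to 0.44 in the fibrillar, -0.07 to 0.09 in the basement membrane and -0.24 to 0.26 in the other class. A range tends to widen with the number of chains, and the upper end of the fibrillar range was Col3a1 alone, with Col5a1 next at 0.14. With Col7a1, Col15a1 and Col18a1 counted as basement membrane chains, the median of that class was 0.01. The difference between classes was not tested, and the fibrillar median was -0.02 with quantile normalization and -0.03 with array weights.

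Type VI supplied 2 of the 4 chains that were higher at an unadjusted p under 0.05. Col6a1, Col6a2 and Col6a3 assemble into the beaded filaments that anchor muscle basement membrane, and loss of any of them in people causes a muscular dystrophy. Col6a2 had signals of 9.88, 9.65, 9.92 and 9.94 in knockout and of 9.63, 9.76, 9.66 and 9.49 in wild type samples 1 to 4, a difference of 0.21 (SE 0.08, limma adjusted p = 0.508). Col6a3 had signals of 9.73, 9.40, 9.69 and 9.65 against 9.40, 9.52, 9.34 and 9.37, a difference of 0.21 (SE 0.08, limma adjusted p = 0.502). In both chains knockout samples 1, 3 and 4 lay above all wild type samples and knockout sample 2 lay among them.

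Col6a1, the third partner, had signals of 9.91, 9.60, 10.06 and 9.88 in knockout and of 9.68, 9.89, 9.80 and 9.64 in wild type samples 1 to 4, and differed by 0.11 (95% interval -0.10 to 0.32). With knockout sample 2 or 3 left out the difference was 0.20 or 0.05, and leaving out wild type sample 4 gave 0.07. Within arrays, Col6a3 minus Col6a1 overlapped between the genotypes (-0.02 to 0.16 in knockout, -0.12 to 0.08 in wild type samples), so the partners were not separated from each other. The other 3 type VI chains did not follow them. Col6a5 had signals of 8.07, 8.02, 8.24 and 8.05 in knockout and of 8.19, 8.34, 8.21 and 8.35 in wild type samples, a difference of -0.18 (SE 0.07, limma adjusted p = 0.508). Knockout sample 3 lay within the wild type range and the other knockout samples below it, and the dimmer second probe set of Col6a5 differed by -0.05. Col6a4 and Col6a6 differed by -0.03 each, and the second Col6a6 probe set by 0.13, the opposite sign.

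Short-chain network collagens went both ways. Col8a1, a chain of the type VIII collagen of vessel walls and stroma, had signals of 8.195, 8.07, 8.47 and 8.30 in knockout and of 8.03, 8.17, 7.95 and 7.86 in wild type samples 1 to 4, a difference of 0.26 (SE 0.09, 95% interval 0.06 to 0.46, limma adjusted p = 0.462). Only knockout sample 2 lay below wild type sample 2. Its partner Col8a2 ran from 8.00 to 8.22 in knockout and from 7.93 to 8.23 in wild type samples and differed by 0.03 (95% interval -0.13 to 0.20), a sign that turned with array weights (-0.01). Col10a1, the collagen of mineralising cartilage, had signals of 7.04, 6.97, 7.07 and 7.10 in knockout and of 7.10, 7.22, 7.33 and 7.20 in wild type samples. It was the chain whose samples did not overlap, with knockout lower by 0.17 (SE 0.06, limma adjusted p = 0.50), but the nearest samples of the genotypes met at 7.10 and the chain lay at the 30.2nd percentile of signals.

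The basement membrane zone collagens outside type IV also differed in sign. Col15a1, which links basement membranes to fibrils in muscle and capillaries, had signals of 9.65, 9.44, 9.77 and 9.65 in knockout and of 9.49, 9.58, 9.52 and 9.37 in wild type samples 1 to 4, a difference of 0.13 (95% interval -0.03 to 0.30). Knockout sample 2 again lay within the wild type range. Col18a1, its relative and the source of endostatin, differed by -0.02 (95% interval -0.18 to 0.14), and Col7a1, the anchoring fibril chain, by -0.10 (-0.24 to 0.04). Col7a1 had signals of 8.62, 8.68, 8.78 and 8.85 in knockout and of 8.78, 8.87, 8.86 and 8.81 in wild type samples 1 to 4.

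Fibril-associated collagens, which coat fibrils without forming them, included the chains of widest spread between samples. Col12a1, abundant in tendon and fascia, had signals of 7.81, 8.08, 7.93 and 8.27 in knockout and of 8.00, 8.49, 8.40 and 8.16 in wild type samples 1 to 4, a difference of -0.24 (SE 0.12, limma adjusted p = 0.657). Col14a1, a fibroblast chain of the same family, had signals of 9.10, 8.45, 9.28 and 8.78 in knockout and of 8.55, 8.97, 8.71 and 8.67 in wild type samples. Its SD of 0.36 over the knockout samples was larger than that of any other chain in either genotype. Its difference was 0.17 (95% interval -0.16 to 0.51). With knockout sample 1, 2 or 3 left out it was 0.11, 0.33 or 0.05, and leaving out wild type sample 1 gave 0.12. Of the 9 fibril-associated chains, 3 had a higher knockout mean. Col9a1 had signals of 8.57, 8.70, 8.89 and 8.82 in knockout and of 8.46, 8.60, 8.73 and 8.67 in wild type samples, and differed by 0.13 (95% interval -0.05 to 0.31), while its partners Col9a2 and Col9a3 differed by -0.08 and -0.04. The 4 transmembrane chains and the remaining chains Col26a1 and Col28a1 differed by -0.08 to 0.04.

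The sign of a chain's difference went with its signal only among the brightest chains. All 8 chains at or above the 75th percentile of signals (Col1a1, Col1a2, Col3a1, Col4a1, Col6a1, Col6a2, Col6a3 and Col15a1) had a higher knockout mean, with a median difference of 0.12, where 59.9% of all genes in that range had a higher knockout mean and the median was 0.02. With quantile normalization Col1a1 turned to -0.02, and with array weights Col1a1 and Col1a2 turned to -0.03 and -0.02; the others kept their sign in both. Of the 25 chains between the median gene and that percentile, 10 were higher and 15 lower, and of the 11 below the median gene 4 were higher and 7 lower. Among all genes the knockout mean was higher for 42.9% at or below the median gene and for 59.9% above it.

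**Figure D3:**
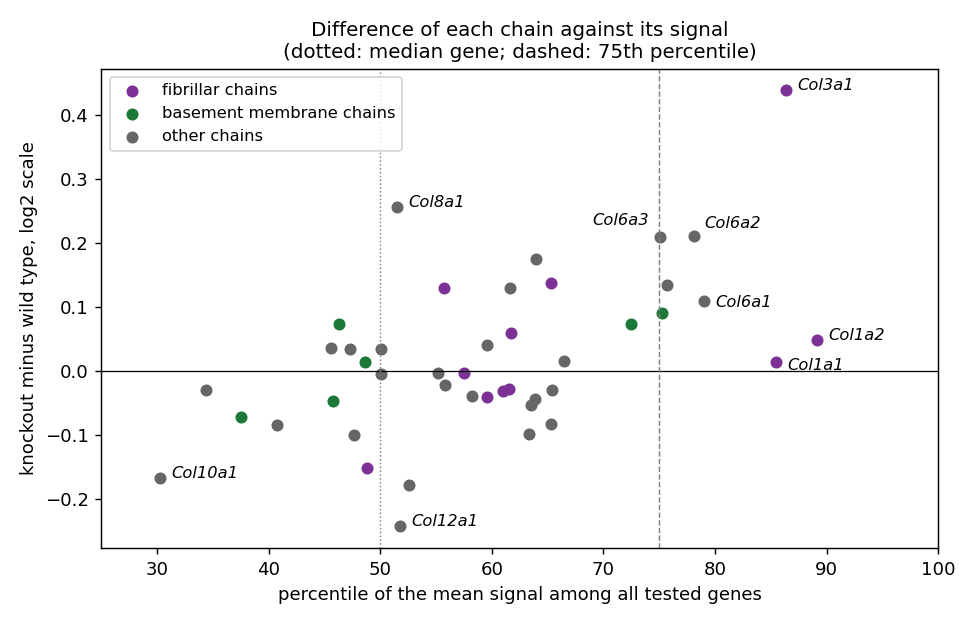
Difference between knockout and wild type muscle (y axis, log2 scale) of each of the 44 collagen chains against the percentile of its mean signal among the 19938 genes tested (x axis), by class. The 8 chains at or above the 75th percentile all lie above 0, with Col3a1 at 0.44 and Col1a1 at 0.01.

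Chains next to each other in the genome had the same sign in all 8 pairs of neighbouring protein-coding genes found in the RefSeq gene order, where 52.5% of all 16917 such pairs of tested genes did. Col6a5 stands in 2 of the 8 pairs. Its shared sign with Col6a6 depends on the probe set, as the dimmer Col6a6 probe set differed by 0.13. Some members lay near 0, such as Col4a3 (0.01) and Col6a4 (-0.03). The pairs were Col3a1 with Col5a2, Col4a1 with Col4a2, Col4a3 with Col4a4, Col4a5 with Col4a6, Col6a1 with Col6a2, Col9a1 with Col19a1, and Col6a5 with both Col6a4 and Col6a6. The sizes differed within pairs, as with Col3a1 (0.44) and Col5a2 (0.13). Most pairs are also chains of 1 type, and position and type were not separated.

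Samples of a genotype differed in many chains at once. Wild type sample 2 was the highest of the 4 wild type samples in 33 of the 44 chains (75%), against 22.4% of all genes, and in 10 of the 11 fibrillar chains. Knockout sample 4 was the highest knockout sample in 30 chains (68.2%, against 36.0% of all genes), and knockout samples 1 and 2 were the lowest in 19 and 23 chains (43.2% and 52.3%, against 31.6% and 22.6% of all genes). The mean of the fibrillar chains, relative to wild type, was 0.11 in wild type sample 2 and -0.05 to -0.03 in the other wild type samples, and 0.03, -0.07, 0.12 and 0.13 in knockout samples 1 to 4. With wild type sample 2 left out, 6 chains had every knockout sample above every wild type sample (4.67% of all genes did): Col3a1, Col4a1, Col5a1, Col5a2, Col5a3 and Col8a1. With knockout sample 2 left out there were 7 such chains (4.08% of all genes): Col3a1, Col5a1, Col5a2, Col6a2, Col6a3, Col8a1 and Col15a1. The chains higher at an unadjusted p under 0.05 in limma numbered 9 without knockout sample 2 (3.68% of all genes in that setting) and 1, Col3a1, without knockout sample 3 (4.64% of all genes). In each of these settings 0 chains passed after adjustment.

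**Figure D4:**
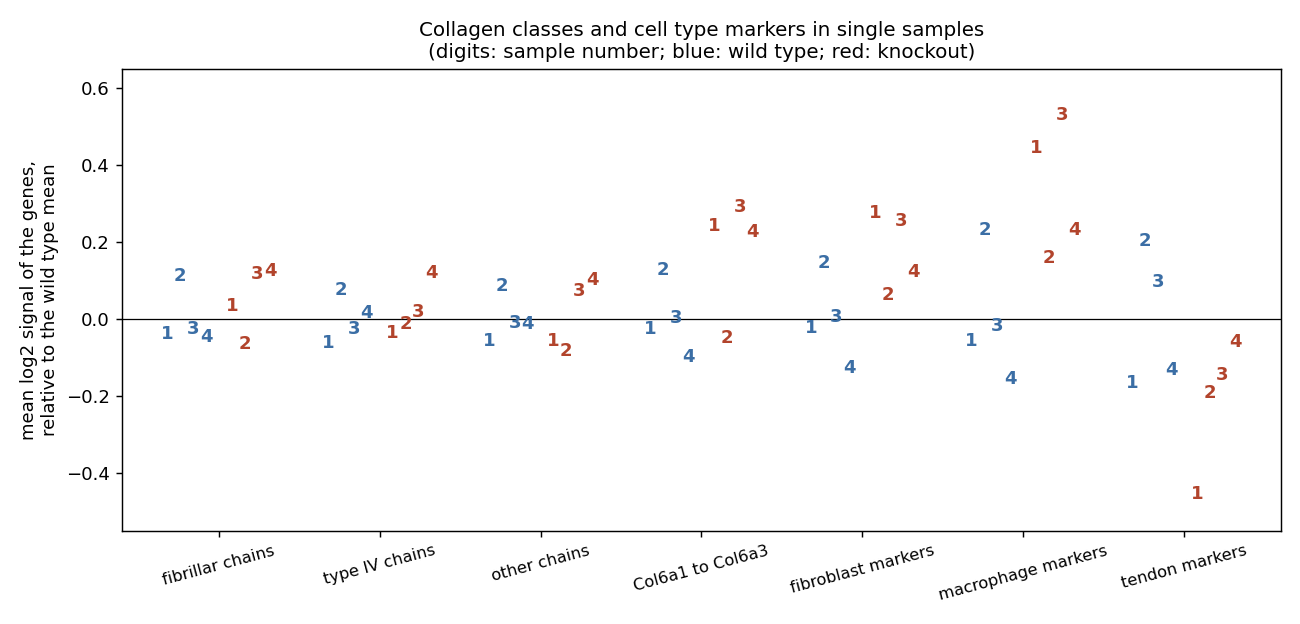
Mean log2 signal relative to the wild type mean (y axis) of the collagen classes, of Col6a1 to Col6a3 together and of 3 cell type marker lists in each sample, where digits give the sample number, blue is wild type and red is knockout. Wild type sample 2 is the highest wild type sample in every column. Knockout samples 1 and 3 are the highest in the Col6a1 to Col6a3, fibroblast and macrophage columns.

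Markers of stromal and immune cells also varied between samples. For fibroblast and macrophage markers the knockout samples did not rank as they did for the mean of all 44 chains. That mean, relative to wild type, was -0.03, -0.07, 0.08 and 0.11 in knockout samples 1 to 4. The mean of Col6a1 to Col6a3 was 0.24, -0.05, 0.29 and 0.22, and that of the macrophage markers 0.44, 0.16, 0.53 and 0.23. Both ranked the knockout samples 3, 1, 4 and 2 from the highest, as did Col3a1, while Col8a1 ranked them 3, 4, 1 and 2. Over all genes, 51.4% had a higher knockout mean, and 4.72% were higher and 3.18% lower at an unadjusted p under 0.05 in limma. Every knockout sample lay above every wild type sample in 2.91% of all genes, and below in 1.99%. All 12 fibroblast and 8 of the 10 macrophage markers lay above the median gene, where 59.9% of all genes had a higher knockout mean. All 12 fibroblast markers had a higher knockout mean, 6 of them at an unadjusted p under 0.05 in limma and 0 after adjustment, with a median difference of 0.18. Relative to the wild type mean, the fibroblast markers averaged 0.28, 0.06, 0.25 and 0.12 in knockout samples 1 to 4 and -0.02, 0.14, 0.006 and -0.13 in wild type samples 1 to 4. All 10 macrophage markers likewise had a higher knockout mean (median 0.35, 8 at an unadjusted p under 0.05 and 0 after adjustment), averaging 0.16 to 0.53 in knockout and -0.16 to 0.23 in wild type samples. The 8 tendon markers had lower knockout means (median -0.19, 4 at an unadjusted p under 0.05 and 0 after adjustment), averaging -0.45 to -0.06 in knockout and -0.17 to 0.20 in wild type samples. The 7 adipocyte markers, relative to wild type, averaged 0.82 in wild type sample 2 and -0.82 in wild type sample 3. Wild type sample 2, in which most chains were high, was the highest wild type sample in every marker list except the fibre markers. In wild type sample 3 the mean of all 44 chains was -0.02. The smooth muscle and pericyte markers split (median 0.06). Of 8, 2 were higher and 3 lower at an unadjusted p under 0.05 in limma and 0 passed after adjustment. The differences ran from -0.46 for Kcnj8, a pericyte channel subunit, to 0.46 for Acta2, smooth muscle actin. Every knockout sample lay above every wild type sample for Acta2, and below for Kcnj8 and Cspg4. Elsewhere, every knockout sample lay above every wild type sample in 1 fibroblast and 2 macrophage markers, and below in 1 tendon and 2 fibre markers. All 5 Schwann cell markers had a lower knockout mean (median -0.21, 2 lower at an unadjusted p under 0.05 and 0 after adjustment). The other lists had 0 markers at an unadjusted p under 0.05, with median differences of -0.03 (8 endothelial markers), -0.05 (7 adipocyte markers), -0.009 (6 cartilage markers) and -0.02 (9 fibre markers). All 9 fibre markers had a lower knockout mean, with differences of -0.05 to -0.006. The part of these cell types in the differences of Col3a1, Col8a1 and the type VI chains was not tested.

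The enzymes that make and mature collagen had small median differences. The counts of these and the following genes stand beside 4.72% of all genes higher and 3.18% lower at an unadjusted p under 0.05, 2.91% with every knockout sample above and 1.99% with every knockout sample below every wild type sample. Of 17 folding and modifying enzymes measured, 0 passed after adjustment in limma, and 0 were higher and 1 lower at an unadjusted p under 0.05: Mia3, which loads procollagen into transport carriers, at 10.94 ± 0.02 (SD, n = 4) against 11.12 ± 0.025 (difference -0.17, SE 0.05, adjusted p = 0.353). For Mia3 every knockout sample lay below every wild type sample. P4ha2, a prolyl hydroxylase subunit, differed by 0.15, and P3h1, a prolyl 3-hydroxylase, by 0.08. The list's median difference was 0.02. Of 12 enzymes that trim or cross-link secreted collagen, 0 passed after adjustment, and 3 were higher and 0 lower at an unadjusted p under 0.05. In this list Adamts3 differed by -0.12 (SE 0.06), with every knockout sample below every wild type sample. The cross-linking oxidase Loxl1 differed by 0.24 (SE 0.07), its relative Lox by 0.40 (SE 0.15) and Pcolce2, an enhancer of procollagen trimming, by 0.22 (SE 0.10), with adjusted p-values of 0.387, 0.485 and 0.611 in limma. Here too the median was small, at 0.06.

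Breakdown enzymes and their inhibitors went both ways. Of 12 measured, 0 passed after adjustment, 1 was higher and 1 lower at an unadjusted p under 0.05. Fap, a protease of activated fibroblasts and also in the fibroblast list, differed by 0.26 (SE 0.085), and every knockout sample lay above every wild type sample. Timp3, a matrix-bound inhibitor of metalloproteinases, differed by -0.23 (SE 0.07), with every knockout sample below every wild type sample. Mmp2, a gelatinase, differed by 0.19 (SE 0.09). The limma adjusted p-values were 0.435, 0.399 and 0.632. The collagenase Mmp13, at the 17.9th percentile of signals, differed by 0.11 (SE 0.05), also with every knockout sample above every wild type sample.

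Receptors and basement membrane partners complete the pathway. Of 8 collagen receptors, 0 passed after adjustment and 2 were higher at an unadjusted p under 0.05. Ddr2, a receptor kinase for fibrillar collagen, differed by 0.20 (SE 0.08), and Itgb1, the beta subunit shared by collagen integrins, by 0.12 (SE 0.05). For Itgb1 every knockout sample lay above every wild type sample. The fibrillar collagen integrin subunit Itga11 differed by 0.21 (SE 0.09). Of 10 laminins, nidogens and other partners of type IV collagen, 9 had a higher knockout mean (59.9% of all genes above the median gene did, as all 10 partners were), 3 at an unadjusted p under 0.05 and 0 after adjustment, with a median of 0.12. Nid1, which ties laminin to type IV collagen, differed by 0.31 (SE 0.09, limma adjusted p = 0.364), the laminin chain Lamb1 by 0.21 (SE 0.07) and Nid2 by 0.15 (SE 0.06). For Nid2 every knockout sample lay above every wild type sample. Col4a1 and Col4a2 themselves differed by less, at 0.09 and 0.07, and the difference between Nid1 and the type IV chains was not tested.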

How the data were processed

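Total RNA (150 ng, integrity number above 8) from 8 samples, 4 per genotype, was hybridised to Affymetrix arrays. The authors deposited log2 values, 1 per probe set, made with Affymetrix Expression Console 4.0, per the submitters' processing notes; no source used here gives the background correction or normalization, and the log scale was read from the values. Array medians lay between 7.69 and 7.77. The number of arrays limits the precision.

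Of 35556 probe sets, 21789 have 1 gene symbol in the platform annotation, 1621 several and 12146 are unnamed here. Taking the brightest probe set of each gene left 19938 genes. All 44 chains matched RefSeq (GRCm38.p6) by Entrez identifier, and 35 had a promoter window there.

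The deposited values were not normalized again. Genotypes were compared with limma 3.58.1 (lmFit, eBayes) in R 4.3.3, genotype the only term, with Benjamini-Hochberg adjustment over all genes; a gene was called at an adjusted p under 0.05. SE is the moderated standard error. The fit was tested on simulated data. Plots used matplotlib 3.10.9.

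The collagen chains and the pathway and marker lists were chosen with earlier results of these data known, so no list was tested. Values in each sample were planned for fibrillar and type IV chains above the median gene and for the 10 other such chains of smallest p with their partners; ranges stand in for some of them. Col10a1 and Col11a1, dimmer than that, were named after their values were seen. For each pathway list the 3 members of smallest p are named. Adamts3 and Mmp13 were named in addition, as their samples did not overlap. Marker lists are given mainly by counts and averages, with only a few of the names that the rule takes from them. Alternatives were quantile normalization, median centring, leaving out dim genes, a trended robust eBayes, array weights, averaged probe sets, the replicate block, an adjusted p under 0.1, wider basement membrane class, and each sample left out.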

Additional observations from a re-analysis of the deposited data

Results flagged for a closer look

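Among 58 groups of 4 values examined (the chains named by rule or at an unadjusted p under 0.05, Hdac5 and the means of the 3 classes, in each genotype), 4 held a sample far from the other 3, where chance gives about 1 in 20, or 2.9. Col1a2 was 10.50 in knockout sample 2 and 10.81 to 10.84 in the other knockout samples. Col4a1 was 9.55 in wild type sample 2 and 9.45 to 9.47 in the other wild type samples. The mean of the fibrillar chains, relative to wild type, was 0.11 in wild type sample 2 and -0.05 to -0.03 in the other wild type samples. Hdac5 was 8.39 in knockout sample 4 and 8.31 to 8.32 in the other knockout samples.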

How the results depend on the processing

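In all 17 alternatives, 0 of the 44 chains passed, including at an adjusted p under 0.1, and Hdac5 passed in 16 of 16 (-1.54 to -1.46). Counts over all genes moved from 13 to 33 with dim genes left out, 44 with a trended robust eBayes, 31 with array weights and 30 with the replicate block; they ran from 5 to 20 with 1 sample left out, and stood at 6 with knockout sample 4 and wild type sample 2 both left out, which was chosen after seeing the data. Same-numbered samples deviated from their group means with correlations of 0.34, -0.11, -0.15 and 0.34, and numbers 1 and 4 but not 2 and 3 had their own number as best partner, so the numbers were not taken as pairs; with the replicate block 0 chains passed, and 5 were higher at an unadjusted p under 0.05, among them Col9a1. Chains higher at an unadjusted p under 0.05 numbered 2 with array weights and 1 to 9 with 1 sample left out; lower chains numbered 1 with dim genes left out and 0 to 4 with 1 sample left out. Chains with every knockout sample above every wild type sample numbered 0 to 7 with 1 sample left out and 6 without both these samples. Chains wholly below numbered 2 with quantile normalization, 2 with median centring, 0 with dim genes left out, 1 to 3 with 1 sample left out and 3 without both. Class medians moved by less than the spread between samples, with ranges of -0.03 to 0.07 (fibrillar), 0.005 to 0.08 (basement membrane) and -0.04 to 0.02 (other); the basement membrane median stayed above 0 and the others took both signs. Signs turned for Col1a1 (-0.019 with quantile normalization, -0.028 with array weights), Col1a2 (-0.022) and Col8a2 (-0.013) with array weights. With 1 sample left out the range was -0.050 to 0.099 for Col1a1, -0.055 to 0.024 for Col24a1, -0.062 to 0.0057 for Col27a1, -0.066 to 0.0077 for Col11a2, -0.079 to 0.0067 for Col2a1 and -0.015 to 0.097 for Col8a2. The cause was not tested. Probe sets naming several genes held no collagen chain, so that alternative gave no value. The number of arrays and signal near the array floor limit what could be seen.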
